A study of Mus musculus with 96 samples.

Results

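The nuclear genes of oxidative phosphorylation encode most subunits of the 5 enzyme complexes of the mitochondrial inner membrane. They were taken here as every row of the count table whose symbol begins with Nduf, Uqcr or Atp5, is Sdha, Sdhb, Sdhc or Sdhd, or begins with Cox followed by a digit between 4 and 8, leaving out symbols that hold -ps. This gave 92 of 23481 gene symbols. No measured value entered the rule. There were 43 genes of complex I, 4 of complex II, 8 of complex III, 20 of complex IV and 17 of complex V. Those of complex I were 7 core subunits, 29 accessory subunits and 7 assembly factors. Atp5s and Atp5sl were placed with complex V by name only, and neither had enough counts for a test.

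Complexes I and II pass electrons from NADH and succinate to ubiquinone, complex III passes them on to cytochrome c, and complex IV passes them to oxygen. Complexes I, III and IV pump protons as they do so, and complex V, the ATP synthase, uses the return flow to make ATP. Core subunits of complex I carry the catalysis, and accessory subunits surround them. In macrophages, lipopolysaccharide (LPS), a bacterial cell wall component, is known to raise glycolysis and to alter how succinate and the respiratory chain are used.

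The libraries came from macrophages grown out of bone marrow of male C57BL/6 mice aged 8 weeks, in conditioned medium with MCSF. There were 12 groups with 8 libraries each, 4 wells on each of 2 plates. In 10 groups a compound was present for 30 min and then LPS for 4 h; they are called by their labels Halofuginone, Torin, BrefA, Dexa, ZVAD, pGE2, Baflo, Tunicamycin, Caspase-1 and tBHQ. The DMSO group received the vehicle and LPS, and the NoStim group no LPS and no stated vehicle. The sources used here give no doses, no compound was given without LPS, and the DMSO libraries serve all compound comparisons as well as the LPS comparison. Nothing in the labels marks the wells as separate cultures, so p-values measure the spread between wells, which may be technical. Nor do they say whether wells of the same name on the plates are separate cultures, so counts of calls with these wells summed, 4 samples per group, are also given. Of 8 macrophage markers in the table, such as Csf1r and Cd68, 8 were well detected (summed level per library 1606 to 4521 CPM, counts scaled to a total of 1e+06). Of the other lists, mast cell and erythroid markers had no count in any library, and the summed markers of neutrophils, B cells, T cells, fibroblasts and dendritic cells stayed at or below 65.9 CPM in every library.

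Total counts per library ran from 80196 to 379198 (median 257984.5), and the 92 genes together had 112 to 2935 of them. The libraries count transcript 3′ ends, which limits comparisons to the same gene between groups. CPM values are counts divided by the effective library size of TMM scaling and multiplied by 1e+06. Enough counts for a test were present for 74 of the 92 genes, among 4963 tested genes in all. A further 13 had counts but were not tested, among them the core subunits Ndufs1 (488 counts over 96 libraries) and Ndufv1 (315 counts). The remaining 5, Cox4i2, Cox7b2, Cox8b, Cox8c and Ndufa4l2, had no count in any library. Calls below are those of edgeR's quasi-likelihood test with Benjamini-Hochberg adjustment over the 4963 genes and a threshold of 0.05. In these bulk samples, fewer cells and less RNA per cell cannot be told apart.

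Among genes with a tissue-restricted or alternative form, macrophages used the general form. Cox4i1, a large subunit of complex IV, had 6451 counts and Cox4i2 none. Cox6a1 and Cox6b1 passed the filter, while Cox6a2, the heart and muscle form, had 15 counts over all libraries and Cox6b2, the testis form, had 4. Cox7a1, another muscle form, had 45 counts. Atp5g1, Atp5g2 and Atp5g3 encode the same mature c subunit of the ATP synthase rotor and were all tested. Many genes of this set have processed pseudogenes, and the sources used here do not say how reads shared with such copies were counted.

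The promoters of these genes are known to hold sites for NRF1, for ETS family factors and for YY1. The 250 bases before the transcription start were searched for NRF1 letters (GCGCA, any base, GCGC), ETS letters (CCGGAAG) and YY1 letters (AANATGGCG), on both strands and at any overlap, in RefSeq sequences of GRCm38.p6. RefSeq windows were found for 73 of the 92 genes, in 78 windows. NRF1 letters were in 19.23% of these windows, against 9.0% of windows of tested genes and 3.74% of all 32851 windows. ETS letters were in 16.67%, against 14.62% and 6.91%. YY1 letters were in 3.85%, against 2.35% and 1.12%. The windows of 5 genes that were lowest in Halofuginone among those with a match, and of Atp5g1, which moved most with LPS and tBHQ, are shown 5′ to 3′ with the match in capitals. They were chosen after the values were seen.

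Ndufs3, chr2:90904722-90904971, minus strand: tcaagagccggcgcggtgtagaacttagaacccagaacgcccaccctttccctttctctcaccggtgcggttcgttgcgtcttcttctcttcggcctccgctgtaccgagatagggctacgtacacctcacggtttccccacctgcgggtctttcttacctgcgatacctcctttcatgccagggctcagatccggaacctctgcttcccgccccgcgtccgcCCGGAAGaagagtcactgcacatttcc
Ndufa11, chr17:56717512-56717761, plus strand: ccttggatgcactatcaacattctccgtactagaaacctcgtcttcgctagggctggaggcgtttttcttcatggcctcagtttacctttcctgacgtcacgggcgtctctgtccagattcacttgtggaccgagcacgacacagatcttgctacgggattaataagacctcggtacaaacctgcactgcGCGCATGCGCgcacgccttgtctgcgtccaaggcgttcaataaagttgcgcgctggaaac
Ndufa8, chr2:36049339-36049588, minus strand: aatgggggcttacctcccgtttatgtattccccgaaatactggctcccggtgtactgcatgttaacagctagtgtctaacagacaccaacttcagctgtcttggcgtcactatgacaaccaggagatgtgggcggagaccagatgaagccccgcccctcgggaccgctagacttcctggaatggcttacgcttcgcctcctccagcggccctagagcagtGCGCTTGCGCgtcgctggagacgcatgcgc
Uqcrh, chr4:116075071-116075320, minus strand: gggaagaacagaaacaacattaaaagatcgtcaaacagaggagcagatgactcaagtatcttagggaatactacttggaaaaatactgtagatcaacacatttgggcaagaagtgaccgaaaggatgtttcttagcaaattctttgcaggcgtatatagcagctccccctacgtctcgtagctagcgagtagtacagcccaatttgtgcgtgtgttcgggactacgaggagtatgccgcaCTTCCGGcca
Uqcr11, chr10:80406822-80407071, minus strand: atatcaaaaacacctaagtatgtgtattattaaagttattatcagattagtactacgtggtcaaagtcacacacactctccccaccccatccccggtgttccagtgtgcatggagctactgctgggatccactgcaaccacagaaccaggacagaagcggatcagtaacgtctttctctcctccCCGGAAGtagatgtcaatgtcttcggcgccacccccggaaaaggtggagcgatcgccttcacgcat
Atp5g1, chr11:96075632-96075881, minus strand: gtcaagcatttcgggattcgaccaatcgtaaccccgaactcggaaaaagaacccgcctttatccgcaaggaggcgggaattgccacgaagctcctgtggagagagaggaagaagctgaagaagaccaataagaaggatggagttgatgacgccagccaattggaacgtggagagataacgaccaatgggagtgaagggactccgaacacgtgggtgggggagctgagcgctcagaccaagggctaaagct

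Ndufa11 and Ndufa8 hold an NRF1 match, Ndufs3, Uqcrh and Uqcr11 an ETS match, and Atp5g1 none of the 3. A match describes letters in a window and says nothing of binding. The windows lie before RefSeq starts, and the GENCODE bounds printed for Ndufs3 and Atp5g1 reach into them. The ETS match of Ndufs3 lies inside the gene by its GENCODE bounds. Among the genes lower in Halofuginone, 10 of 48 with a window held NRF1 letters, 11 held ETS letters and 3 YY1 letters. Of the 15 tested genes with a window that were not lower, 3 held NRF1 letters, 1 ETS letters and 0 YY1 letters. These differences were not tested.

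Summed over the 92 genes, the level was lowest in Halofuginone. The sum had a lowest value of 1908, a median of 2634 and a highest of 3587 CPM in Halofuginone, against 5695, 5954 and 7415 CPM in DMSO. In Torin it was 3896, 4931 and 5639 CPM, below every DMSO library. In tBHQ it was 5596, 7804 and 8774 CPM, and in NoStim 5612, 7861 and 8905 CPM. Both of these groups overlapped with DMSO. The means of the other groups lay between 5723 ± 678 CPM in BrefA and 7322 ± 977 CPM in Caspase-1 (SD, n = 8 each).

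**Figure D1:**
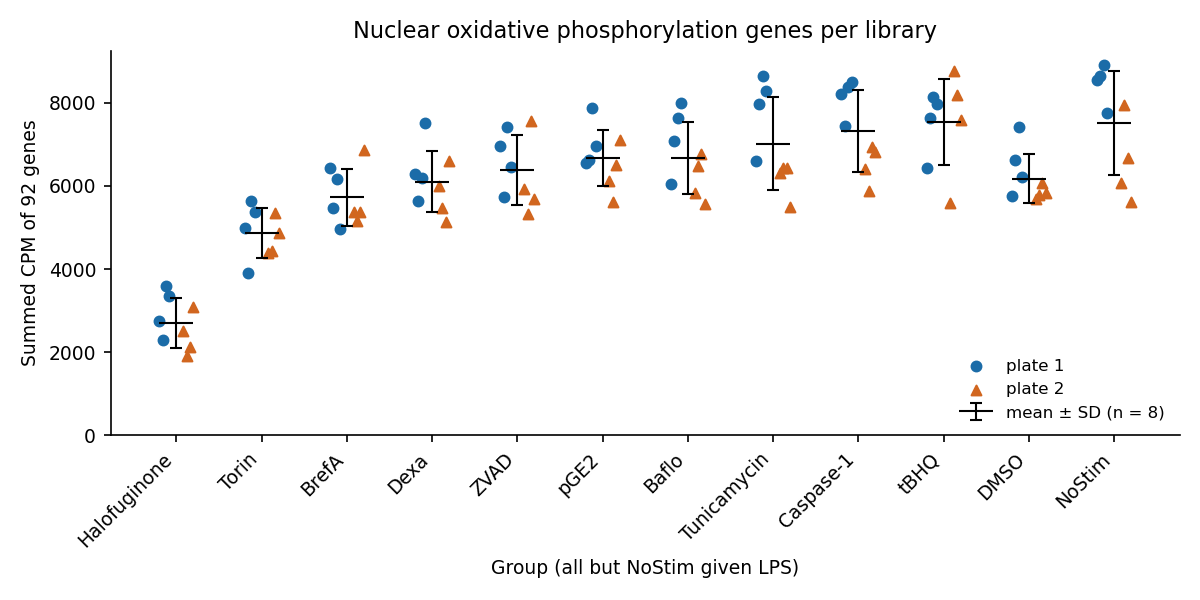
Summed CPM of the 92 genes in each of 96 libraries (vertical axis), by group, with plate 1 as circles and plate 2 as triangles; bars are the mean and SD of 8 libraries. Halofuginone libraries lie at or below 3587 CPM and DMSO libraries at or above 5695 CPM.

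The sum moved with the share of Rn45s, the ribosomal RNA precursor, within groups. Rn45s took 44.7% ± 3.20 of counts in Halofuginone and 19.4% ± 4.64 in DMSO (SD, n = 8 each). In each of the 12 groups, libraries with more Rn45s had a lower sum, with Pearson's r between -0.965 and -0.661 over 8 libraries. The exact permutation test, two-sided and adjusted over the 12 groups, was past 0.05 in 7 groups for r and in 3 for Spearman's rho. Leaving out the 2 libraries farthest from the group's median share, r lay between -0.978 and -0.114. Plate 2 had the higher mean Rn45s share and the lower mean sum in 12 of 12 groups, and 4 libraries per plate are too few for a value within a plate. Taking deviations from each group's plate mean instead, r was -0.835 over 96 libraries, as a description.

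For single genes r was smaller in size. A single gene has far fewer counts than the sum, and the part of counting error in this was not tested. The median r of a gene's log2 CPM with the Rn45s share, as deviations from the plate means of its group, was -0.217 over the 74 tested genes. It was -0.018 over all tested genes and -0.114 over 35 tested genes of the mitochondrial ribosome. Among the 74, r ran from -0.597 for Cox6b1, a complex IV subunit facing the intermembrane space, to 0.036 for Ndufs6, an accessory subunit of complex I. Counts of calls with the Rn45s share as a covariate therefore stand beside the counts below. The lowest Rn45s share in Halofuginone was 39.0% and the highest in any other library 30.9%, so for Halofuginone that fit extends past the shares it was fitted on.

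**Figure D2:**
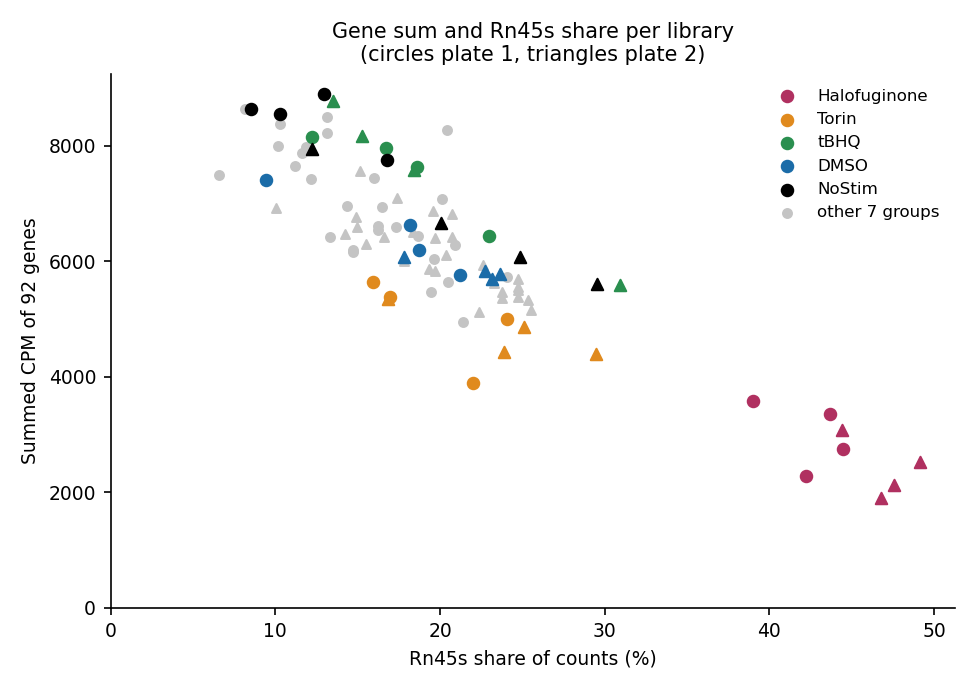
Summed CPM of the 92 genes (vertical axis) against the Rn45s share of counts in percent (horizontal axis), 1 point per library, with circles for plate 1 and triangles for plate 2. Halofuginone libraries stand apart at 39.0% Rn45s or more, and within the other groups the sum is lower where the share is higher.

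Halofuginone, known as an inhibitor of prolyl-tRNA synthetase, was compared with DMSO, both with LPS. Of 74 tested genes, 56 were lower and 0 higher, while 25.0% of all tested genes were lower and 15.3% higher. All 8 tested genes of complex III were lower, as were 25 of 35 of complex I, 11 of 12 of complex IV, 11 of 15 of complex V and 1 of 4 of complex II. The median log2 fold change was -1.22 over the 74 genes and -0.20 over all tested genes.

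**Figure D3:**
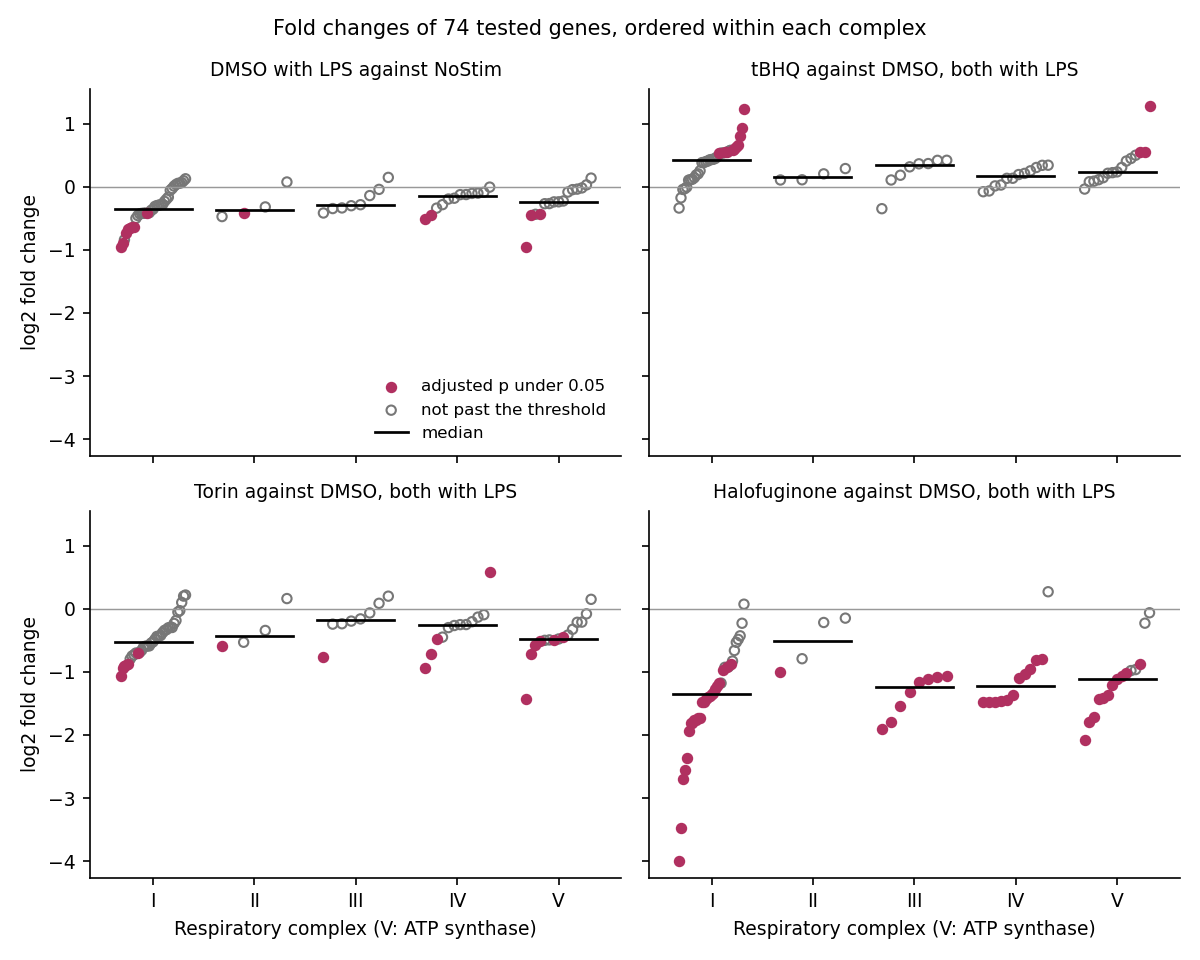
Log2 fold change (vertical axis) of each of 74 tested genes in 4 comparisons, grouped by respiratory complex (horizontal axis) and ordered within it; filled points passed an adjusted p of 0.05 and black lines are medians. Halofuginone points lie mostly between -2 and -0.8, with the lowest in complex I, and the tBHQ points past the threshold all lie above 0.

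In complex I, the core subunit Ndufs3 (chr2:90894634-90904827, minus strand, GRCm38) had 1 count in the 8 Halofuginone libraries together and 76 in the 8 DMSO libraries. The scaled ratio was 0.0496 (95% exact interval 0.00124 to 0.285, counting error only). Ndufb3, an accessory subunit, had 1 count and 52 counts, a ratio of 0.0725 (0.00180 to 0.422). Ndufa9, Ndufa11 and Ndufa8 had 3 counts each in Halofuginone, against 79, 72 and 63 in DMSO. Their ratios were 0.143, 0.157 and 0.179. These accessory subunits were at 0 in 5 of 8 Halofuginone libraries each and were counted in all 8 DMSO libraries. Total counts per library were at most 136500 in Halofuginone and at least 201200 in DMSO, so these zeros are not compared at equal depth. The fitted log2 fold changes of the 5 genes, -4.00 to -2.37, rest on these few counts.

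Ndufa2, Ndufa13 and Ndufb9 were the next lowest of complex I. Ndufa2 had 0, 21.5 and 68.8 CPM (lowest, median and highest) in Halofuginone, against 81.4, 92.9 and 147 CPM in DMSO. Every Halofuginone library was below every DMSO library. Its log2 fold change was -1.94 ± 0.35 (SE, edgeR adjusted p = 1.36e-06). Ndufa13 had a log2 fold change of -1.82 ± 0.34 (edgeR adjusted p = 3.82e-06), also without overlap, and Ndufb9 one of -1.82 ± 0.42 (edgeR adjusted p = 0.000172), with overlap. The assembly factors Ndufaf2 and Ndufaf7 did not pass, at -0.93 and 0.07.

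In complex III, Uqcrh, the hinge protein beside cytochrome c1, had 0, 29.1 and 86.0 CPM in Halofuginone, against 92.8, 118 and 188 CPM in DMSO. The groups did not overlap, and its log2 fold change was -1.91 ± 0.34 (edgeR adjusted p = 1.33e-06). Uqcrfs1, the Rieske iron-sulfur subunit, fell by 1.32 on the log2 scale, and the core proteins Uqcrc1 and Uqcrc2 fell by 1.06 and 1.16.

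In complex IV, Cox4i1 had 32.5, 85.8 and 265 CPM in Halofuginone, against 214, 237 and 329 CPM in DMSO. Only 1 of 8 Halofuginone libraries reached the DMSO range. The log2 fold change was -1.36 ± 0.20 (edgeR adjusted p = 3.33e-09). Cox5a, a subunit on the matrix side, had 17.0, 65.3 and 120 CPM in Halofuginone, against 138, 187 and 214 CPM in DMSO, without overlap (log2 fold change -1.48 ± 0.24, edgeR adjusted p = 5.05e-08). Ndufa4, first assigned to complex I and now placed with complex IV, was the exception. It had 17.0, 67.3 and 120 CPM in Halofuginone, against 21.3, 59.1 and 77.9 CPM in DMSO (log2 fold change 0.27 ± 0.29, edgeR adjusted p = 0.487).

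In complex V, Atp5j2, the f subunit of the membrane part, had 11.5, 23.3 and 78.0 CPM in Halofuginone, against 99.8, 125 and 152 CPM in DMSO. The groups did not overlap (log2 fold change -2.08 ± 0.29, edgeR adjusted p = 5.06e-10). Atp5k, the e subunit, fell by 1.79 on the log2 scale and Atp5b, the catalytic beta subunit, by 1.01. Atp5a1, the alpha subunit beside it, did not pass, at -0.23 ± 0.20 (edgeR adjusted p = 0.397). Nor did Atp5f1, a stator subunit, at -0.07 ± 0.43 (edgeR adjusted p = 0.918).

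In complex II, Sdhb, the iron-sulfur subunit, had 0, 52.3 and 97.6 CPM in Halofuginone, against 78.1, 110 and 149 CPM in DMSO. The groups overlapped (log2 fold change -1.0 ± 0.27, edgeR adjusted p = 0.00153). Sdha, the flavoprotein, Sdhc and Sdhd, the membrane anchors, did not pass, at -0.22, -0.79 and -0.15.

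Of the 56 genes lower in Halofuginone, 56 had the same sign on both plates. So did 1239 of all 1240 genes lower in Halofuginone, or 99.9%, and the set did not stand out in this. Those 1239 were 25.0% of all tested genes. The groups did not overlap for 13 of the 56, or 23.2%. That held for 30.8% of all 1240 genes lower in Halofuginone and for 7.70% of all tested genes, so a lack of overlap was not more frequent in the set than in the genes lower in all. With same-named wells summed 55 genes of the set were called. Adding the Rn45s share as a covariate left 9 genes called, all lower: Ndufb3, Ndufs3, Ndufa8, Ndufa11, Atp5j2, Atp5k, Atp5j, Atp5l and Cox4i1. The median then was -0.47, against -0.29 over all tested genes. In a fit of Halofuginone and DMSO alone 22 were called. The part of Rn45s and depth in this comparison was not tested apart from these fits.

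Transcript length also differed. The tested genes had a median transcript length of 652 nt, against 2161.5 nt over the 4637 tested genes with a length in GENCODE M21. These genes were put in 4 length classes of equal size. In the shortest class, 307 to 1179 nt, the median Halofuginone fold change was -1.27 for the 63 genes of the set and -0.58 for the 1097 others. In that class 38.92% of the other genes were lower in Halofuginone. The other genes' median was 0.16 in the longest class. The part of length in the result was not tested further.

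**Figure D4:**
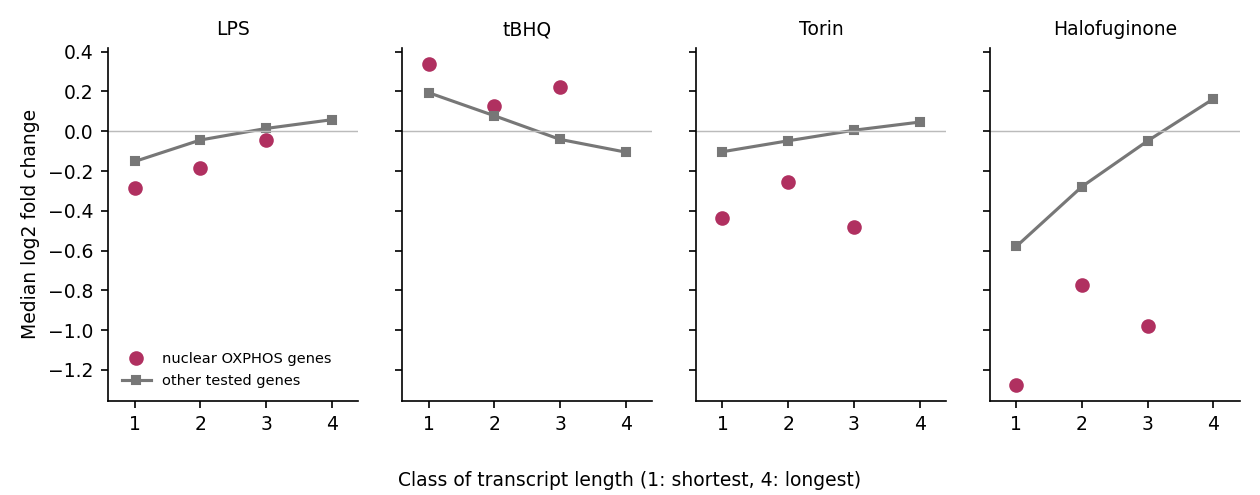
Median log2 fold change (vertical axis) by class of transcript length (horizontal axis, from 1, the shortest, to 4, the longest) in 4 comparisons, for nuclear oxidative phosphorylation (OXPHOS) genes and for the other tested genes. In the shortest class the medians in Halofuginone are -1.27 and -0.58, and the longest class holds none of the 74 genes.

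Related mitochondrial lists were read beside the 25.0% of all tested genes that were lower in Halofuginone. Of 35 tested mitochondrial ribosome genes 17 were lower and 0 higher, or 48.6% lower (median -1.11). The 3 largest changes were in Mrpl27 (1.60 ± 4.53 CPM in Halofuginone, 25.8 ± 7.72 CPM in DMSO, SD, n = 8), Mrpl51 and Mrpl23. Of 22 tested import and inner membrane genes 13 were lower, or 59.1% (median -0.97), with the largest changes in Timm10, Tomm5 and Tomm6. Of the 6 tested mobile carriers and other chain subunits, 5 were lower (median -1.47), among them Cyc1, cytochrome c1, Romo1 and Usmg5.

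Of 10 tested citrate cycle genes 3 were lower, Idh3b, Suclg1 and Ogdh, and of 13 tested assembly factors outside the rule also 3, Cox14, Acad9 and Cox17. These shares, 30.0% and 23.1%, lie near that of all tested genes. Of 5 tested regulators of mitochondrial biogenesis, Esrra and Ppargc1b were lower. Ppargc1b, a coactivator of respiratory genes, had 1.60 ± 4.53 CPM in Halofuginone and 55.5 ± 15.4 CPM in DMSO (SD, n = 8). With an SD above the mean, this Halofuginone value and that of Mrpl27 rest on very few counts, at lower depth than DMSO.

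Torin, known as an inhibitor of the mTOR kinase, which is known to act on both transcription and translation of nuclear mitochondrial genes, was compared with DMSO, both with LPS. Of 74 tested genes 17 were lower and 1 was higher, while 7.11% of all tested genes were lower and 9.61% higher. The lower genes were 6 of 35 of complex I, 1 of 4 of complex II, 1 of 8 of complex III, 3 of 12 of complex IV and 6 of 15 of complex V. The median log2 fold change was -0.43 over the 74 genes and -0.02 over all tested genes. In the shortest length class the median was -0.44 for genes of the set and -0.10 for the others, and the part of length was not tested.

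Atp5d, the delta subunit of the ATP synthase stalk (chr10:80138632-80145818, plus strand, GRCm38), changed most. It had 0, 18.7 and 40.0 CPM in Torin, against 21.7, 44.7 and 87.7 CPM in DMSO. The groups overlapped, with most Torin libraries below the DMSO range (log2 fold change -1.43 ± 0.32, edgeR adjusted p = 0.000259). It was -1.46 on plate 1 and -1.41 on plate 2.

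Ndufb7, an accessory subunit of complex I, had 0, 30.5 and 48.5 CPM in Torin, against 31.9, 66.8 and 82.4 CPM in DMSO, with overlap (log2 fold change -1.07 ± 0.26, edgeR adjusted p = 0.000817). Cox5b had 22.6, 46.0 and 70.9 CPM in Torin, against 65.0, 86.9 and 117 CPM in DMSO, again with overlap (log2 fold change -0.94 ± 0.21, edgeR adjusted p = 0.000336). Its partner Cox5a fell by 0.72 on the log2 scale. The other large changes were in complex I, where Ndufs7, Ndufb2, Ndufb5 and Ndufb8 fell by 0.94, 0.91, 0.89 and 0.87, and in Uqcr11 of complex III, which fell by 0.77. Atp5o, the stalk subunit that confers oligomycin sensitivity, fell by 0.71.

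Cox7a2l, known as a factor for supercomplexes of complexes III and IV (chr17:83501918-83517330, minus strand, GRCm38), was the gene that rose. Whether its product has that role in the cells used here was not examined. Cox7a2l is read here as a transcript level only. It had 71.0, 146 and 210 CPM in Torin, against 77.4, 96.1 and 117 CPM in DMSO. The ranges overlapped, the lowest Torin library lying below all DMSO libraries (log2 fold change 0.58 ± 0.18, edgeR adjusted p = 0.0123). With the Rn45s covariate it was 0.65, and 13 genes of the set were lower. The count of calls was 9 with same-named wells summed, 6 on plate 1 and 0 on plate 2.

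Among related lists in Torin, 2 of 35 mitochondrial ribosome genes were lower (Mrpl22 and Mrpl20; median -0.40) and 2 of 22 import genes (Timm13 and Tomm22). These shares, 5.71% and 9.09%, lie near the 7.11% of all tested genes. Cycs, cytochrome c, was lower, at 74.2 ± 21.4 CPM in Torin and 116 ± 32.2 CPM in DMSO (SD, n = 8 each). Cox17, a copper chaperone for complex IV, and Ppargc1b were higher, by 0.67 and 0.65 on the log2 scale. None of 10 tested citrate cycle genes passed.

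tBHQ, known to activate the oxidative stress factor NRF2, was compared with DMSO, both with LPS. Of 74 tested genes 13 were higher and 0 lower, while 17.3% of all tested genes were higher and 19.1% lower. The share of the set that was higher, 17.6%, is thus near that of all tested genes. Complex I held 10 of them and complex V 3, and complexes II, III and IV none. The median log2 fold change was 0.30 over the 74 genes and 0.04 over all tested genes. In the shortest length class the median was 0.34 for 63 genes of the set and 0.19 for the 1097 others. In that class 24.66% of all genes were higher in tBHQ, and the part of length was not tested.

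Atp5g1 (chr11:96068852-96075670, minus strand, GRCm38) changed most. It had 46.5, 81.0 and 116 CPM in tBHQ, against 13.0, 31.7 and 50.3 CPM in DMSO. The groups overlapped at the edges of these ranges (log2 fold change 1.28 ± 0.24, edgeR adjusted p = 3.27e-06). The other genes for the same c subunit differed less, with Atp5g2 at 0.55 ± 0.21 (edgeR adjusted p = 0.0306), while Atp5g3, at 205 ± 42.7 CPM in tBHQ and 189 ± 27.2 CPM in DMSO (SD, n = 8 each), did not pass.

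Ndufc1, an accessory subunit of complex I (chr3:51404677-51408988, minus strand, GRCm38), had 23.3, 73.7 and 100.1 CPM in tBHQ, against 12.6, 26.3 and 46.0 CPM in DMSO. The groups overlapped (log2 fold change 1.24 ± 0.26, edgeR adjusted p = 3.41e-05). Ndufv3, a small subunit of the NADH-oxidising part, had 65.9, 103 and 149 CPM in tBHQ, against 45.6, 58.2 and 85.2 CPM in DMSO, with overlap (log2 fold change 0.80 ± 0.21, edgeR adjusted p = 0.000991). The core subunits Ndufs8 and Ndufv2 rose by 0.94 and 0.63 on the log2 scale, and the accessory subunits Ndufb8, Ndufa6, Ndufa3 and Ndufa2 by 0.67, 0.60, 0.58 and 0.55. Atp5h, a stator subunit of complex V, rose by 0.55.

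The number of calls in tBHQ depended on scaling. It was 34, all higher, with RLE scaling, under which the median of all tested genes was 0.19, and 14 with the Rn45s covariate. It was 6 with same-named wells summed, 3 on plate 1 and 9 on plate 2.

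**Figure D5:**
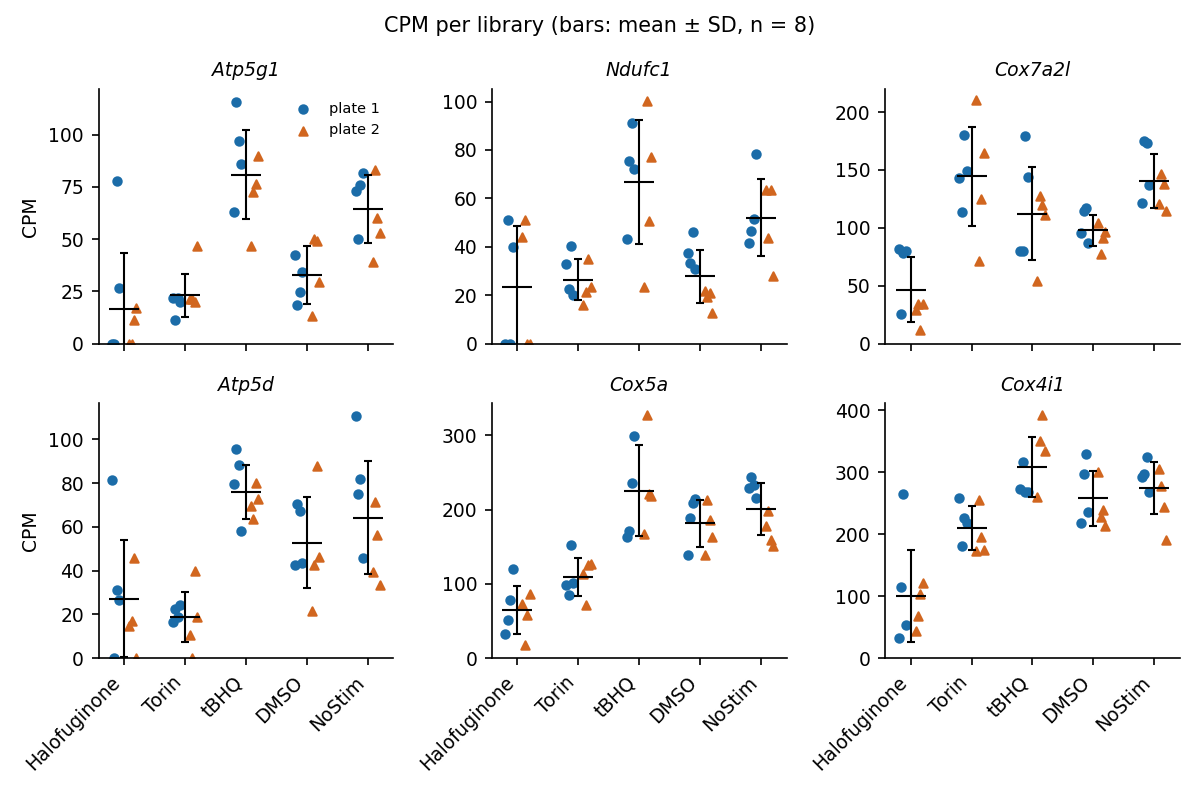
CPM per library (vertical axis) of 6 genes in 5 groups (horizontal axis), circles for plate 1 and triangles for plate 2, with the mean and SD of 8 libraries. Atp5g1 and Ndufc1 are high in tBHQ and NoStim, Cox7a2l is high in Torin, Cox5a and Cox4i1 are low in Halofuginone, and Atp5d has its lowest mean of these groups in Torin, 18.9 CPM, against 52.7 CPM in DMSO.

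Among related lists in tBHQ, 6 of 35 mitochondrial ribosome genes were higher, led by Mrpl42, and 2 lower, Mrpl52 and Mrpl32. The share that was higher, 17.1%, is near the 17.3% of all tested genes, and the share that was lower, 5.71%, is under the 19.1%. The import genes Tomm5, Tomm40 and Phb2 were higher, 13.6% of 22 tested. Acad9, a complex I assembly factor outside the rule, Cycs and Ppargc1b were lower, with log2 fold changes of -1.24, -0.60 and -1.81. Irg1, which makes itaconate, an inhibitor of succinate dehydrogenase, had 208 ± 51.3 CPM in tBHQ and 1158 ± 85.3 CPM in DMSO (SD, n = 8 each).

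LPS was compared without compound, as DMSO against NoStim. Of 74 tested genes 14 were lower and 0 higher, while 16.6% of all tested genes were lower and 19.5% higher. The share of the set that was lower, 18.9%, is near that of all tested genes. They were 8 of 35 of complex I, 1 of 4 of complex II, 2 of 12 of complex IV and 3 of 15 of complex V. The 8 were among 28 tested accessory subunits of complex I, whose median log2 fold change was -0.365. None of its 5 tested core subunits passed, but their median was -0.423. The median log2 fold change was -0.28 over the 74 genes and -0.04 over all tested genes, and 63 of the 74 values were below 0. In the shortest length class the median was -0.285 for genes of the set and -0.152 for the others. The part of length was not tested.

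Atp5g1 had 13.0, 31.7 and 50.3 CPM in DMSO, against 39.3, 66.4 and 83.2 CPM in NoStim (log2 fold change -0.96 ± 0.25, edgeR adjusted p = 0.000697). Ndufb4, an accessory subunit of the complex I membrane arm, had 34.1, 41.4 and 96.3 CPM in DMSO, against 49.4, 95.8 and 124 CPM in NoStim (log2 fold change -0.95 ± 0.23, edgeR adjusted p = 0.000315). Ndufc1 had 12.6, 26.3 and 46.0 CPM in DMSO, against 27.9, 49.0 and 78.2 CPM in NoStim (log2 fold change -0.90 ± 0.27, edgeR adjusted p = 0.00393). The groups overlapped for each of these 3 genes, as for all 14. Of all 822 genes lower with LPS, 194 did not overlap, or 23.6%. They were 3.91% of all tested genes.

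The other named changes were smaller. Ndufs4, an accessory subunit beside the electron input of complex I, fell by 0.73 on the log2 scale, Ndufb9 by 0.67, Ndufb8 by 0.66, Ndufa6 by 0.64 and Ndufa3 by 0.63. Cox7a2l fell by 0.52, with 77.4, 96.1 and 117 CPM in DMSO, against 114, 137 and 175 CPM in NoStim. Sdhb fell by 0.42 (edgeR adjusted p = 0.0397). Atp5h, a stator subunit, and Cox8a fell by 0.45 each.

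With same-named wells summed 9 genes were called and with the Rn45s covariate 12. RLE scaling gave 27, with the median of all tested genes at -0.19, and plates alone gave 11 on plate 1 and 2 on plate 2.

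The LPS and tBHQ comparisons share the DMSO libraries, as do all compound comparisons. Side by side, Atp5g1 averaged 80.8 ± 21.2 CPM in tBHQ, 32.7 ± 13.8 CPM in DMSO and 64.5 ± 16.2 CPM in NoStim (SD, n = 8 each). Ndufc1 averaged 66.6 ± 25.7 CPM in tBHQ, 27.8 ± 11.0 CPM in DMSO and 52.0 ± 15.8 CPM in NoStim. In ZVAD and Baflo, where no gene was called, Atp5g1 averaged 46.5 and 45.2 CPM and Ndufc1 40.7 and 42.2 CPM. For both genes the means of Dexa, pGE2, Tunicamycin and BrefA also lay above DMSO, and those of Torin and Halofuginone below. The part of a low level in the shared DMSO libraries in these calls was not tested. Irg1 and Sod2, mitochondrial enzymes known to be induced in activated macrophages, had 1158 ± 85.3 CPM and 669 ± 48.0 CPM in DMSO, against 133 ± 50.2 CPM and 186 ± 69.9 CPM in NoStim.

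Other mitochondrial genes passed in both directions with LPS. Acad9 (log2 fold change 1.25 ± 0.21, edgeR adjusted p = 1.69e-07) and Ppargc1b (2.62 ± 0.32, edgeR adjusted p = 1.04e-12) were higher, as was Cycs, by 0.52. Ucp2, an inner membrane carrier, was lower, at -1.01. Of 35 mitochondrial ribosome genes 7 were lower and 2 higher, beside 16.6% and 19.5% of all tested genes, with the largest changes in Mrpl52 (1.19), Mrps25 (-1.08) and Mrpl32 (0.97). Of 10 citrate cycle genes Suclg1 was lower and Ogdh higher, and Slc25a5, an ADP/ATP carrier, was the 1 import gene of 22 that was lower. Mitochondrially encoded subunits are not analysed here.

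In Caspase-1 against DMSO, both with LPS, 4 genes were higher and 0 lower, while 1.39% of all tested genes were higher and 1.51% lower. Ndufc1 had 38.5, 51.7 and 82.1 CPM in Caspase-1, against 12.6, 26.3 and 46.0 CPM in DMSO, with overlap (log2 fold change 0.92 ± 0.27, edgeR adjusted p = 0.0355). Ndufs4, Atp5h and Cox5a rose by 0.79, 0.52 and 0.49 on the log2 scale. The median was 0.25 over the 74 genes. Rn45s took 15.3% ± 4.26 of counts in Caspase-1 and 19.4% ± 4.64 in DMSO, and with that share as a covariate, with same-named wells summed or on either plate alone, 0 genes were called.

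In Tunicamycin, known to block N-linked glycosylation, against DMSO, both with LPS, Atp5b and Uqcrfs1 were higher and 0 genes lower, while 2.80% of all tested genes were higher and 1.57% lower. Atp5b had 126, 184 and 239.9 CPM in Tunicamycin, against 106, 123 and 159 CPM in DMSO, with overlap (log2 fold change 0.48 ± 0.15, edgeR adjusted p = 0.0456). Uqcrfs1 rose by 0.59. The share of the set that was higher, 2.70%, is near that of all tested genes. Neither gene passed with the Rn45s covariate or with same-named wells summed.

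In pGE2 against DMSO, both with LPS, Atp5b was the 1 gene higher and 0 were lower, while 5.20% of all tested genes were higher and 5.98% lower. It had 144, 159 and 240 CPM in pGE2, against 106, 123 and 159 CPM in DMSO, with overlap (log2 fold change 0.45 ± 0.15, edgeR adjusted p = 0.0369). The share of the set that was higher, 1.35%, is below that of all tested genes. The call was lost with same-named wells summed.

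In BrefA against DMSO, both with LPS, 3 genes were lower and 0 higher, while 9.25% of all tested genes were lower and 8.08% higher. Atp5j2 had 69.3, 77.9 and 92.2 CPM in BrefA, against 99.8, 125 and 152 CPM in DMSO, without overlap (log2 fold change -0.64 ± 0.17, edgeR adjusted p = 0.00206). Ndufa3 fell by 0.60 and Atp5k by 0.47. The share of the set that was lower, 4.05%, is below that of all tested genes. Atp5j2 and Atp5k are small membrane subunits of the ATP synthase. With same-named wells summed 1 gene was called.

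Dexa, Baflo and ZVAD against DMSO, all with LPS, gave 0 genes past the threshold. Among all tested genes 1.95% were higher and 1.61% lower in Dexa. In Baflo 0% were higher and 0% lower, and in ZVAD 0% and 0%. At an unadjusted p under 0.05 there were 1, 6 and 3 of the 74 genes in Dexa, Baflo and ZVAD, and DESeq2 called 0 in each. The median log2 fold changes were -0.04, 0.09 and 0.04.

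Compounds were also compared with each other, in contrasts that do not use the DMSO level. The DMSO libraries stayed in the model, for scaling, filter, plate term and spread. Fits of only the groups compared called fewer genes in each of these comparisons, as listed in the closing section. In Halofuginone against Torin, 40 genes were lower and 0 higher, while 23.2% of all tested genes were lower and 13.5% higher. Cox7a2l had 11.5, 34.2 and 81.3 CPM in Halofuginone, against 71.0, 146 and 210 CPM in Torin, with overlap (log2 fold change -1.68 ± 0.28, edgeR adjusted p = 1.73e-07). Uqcrh had 0, 29.1 and 86.0 CPM in Halofuginone, against 56.6, 143 and 184 CPM in Torin, also with overlap (log2 fold change -1.99 ± 0.34, edgeR adjusted p = 5.76e-07). Adding the Rn45s covariate left 2 genes called, Cox7a2l and Ndufb3, with a median of -0.09 over the 74 genes and -0.26 over all tested genes.

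In Halofuginone against Tunicamycin, 58 genes were lower and 0 higher, while 27.3% of all tested genes were lower and 17.7% higher. The median was -1.44 over the 74 genes and -0.19 over all tested genes. All 8 tested genes of complex III, 26 of 35 of complex I, 12 of 15 of complex V and 11 of 12 of complex IV were lower. Uqcrh had 0, 29.1 and 86.0 CPM in Halofuginone, against 86.5, 121 and 278 CPM in Tunicamycin, without overlap (log2 fold change -2.12 ± 0.34, edgeR adjusted p = 3.81e-08). Ndufs3 and Ndufb3, with 1 count each in Halofuginone, had 74 and 49 counts in Tunicamycin. Their scaled ratios were 0.0511 (95% exact interval 0.00128 to 0.293) and 0.0771 (0.00191 to 0.450). Adding the Rn45s covariate left 11 genes called.

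In Tunicamycin against BrefA, 5 genes were higher and 0 lower, while 9.93% of all tested genes were higher and 6.99% lower. Ndufa3 had 59.4, 87.2 and 99.5 CPM in Tunicamycin, against 31.7, 47.0 and 60.4 CPM in BrefA, with overlap at the edge (log2 fold change 0.83 ± 0.20, edgeR adjusted p = 0.00104). Cox6c, Uqcrh, Ndufb9 and Atp5l rose by 0.74, 0.61, 0.60 and 0.37 on the log2 scale. For Cox6c the change was 1.20 on plate 1 and 0.16 on plate 2, and for Atp5l 0.74 and -0.04. The share of the set that was higher, 6.76%, is below that of all tested genes.

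Over the 11 comparisons with DMSO on either side, 63 of the 74 tested genes passed in at least 1 and 11 in none. Halofuginone alone gave 56 of the 63, where 25.0% of all tested genes were lower and 15.3% higher. The share of all tested genes that passed in at least 1 comparison was not counted, so 63 of 74 has no background here. The 11 that passed in none were Sdha, Sdhc and Sdhd of complex II, Ndufa10, Ndufb10, Ndufs5, Ndufaf2 and Ndufaf7 of complex I, Ndufa4 of complex IV, and Atp5a1 and Atp5f1 of complex V. Sdha, for example, averaged 38.7 ± 33.1 CPM in Halofuginone, 49.7 ± 14.3 CPM in Torin, 48.3 ± 14.6 CPM in tBHQ, 44.9 ± 14.8 CPM in DMSO and 62.1 ± 11.2 CPM in NoStim (SD, n = 8 each). A value that missed the threshold does not show that a gene's level was the same.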

How the data were processed

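The authors deposited read counts per gene symbol for 96 libraries of transcript 3′ ends; reads were aligned with BWA to mm10, per the submitters' processing notes. The sources used here do not give the annotation, strand, treatment of shared reads or collapse of PCR copies, so intervals cover counting error only. Groups, plates and wells were read from the labels. The genes and lists were chosen with earlier results of these data known.

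A model of group and plate was fitted to all 96 libraries in edgeR 4.0.16 (R 4.3.3), after TMM scaling and filterByExpr. Contrasts were tested two-sided by robust quasi-likelihood, with Benjamini-Hochberg adjustment over 4963 genes per comparison, tested on simulated data. DESeq2 1.42.0 was an alternative, with RLE scaling, other filters, single plates, summed wells, a replicate block, left-out wells, and the Rn45s share as a covariate. The covariate with summed wells or without Halofuginone was added after seeing the data. The genes named are up to 10 per comparison with the largest absolute changes past the threshold, genes with alternative forms, the Sdh genes and up to 3 per related list; others were picked after their values were seen, among them Atp5a1, Atp5f1, Uqcrc1, Uqcrc2, Uqcrfs1 and Atp5b. A result for 1 gene of the related lists is not reported here. Coordinates are from GENCODE M21 and promoters from RefSeq GRCm38.p6. Figures used matplotlib 3.10.9 in Python 3.11.15.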

Additional observations from a re-analysis of the deposited data

Results flagged for a closer look

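Among 72 sets of 8 libraries (the 92 genes together and each of the 5 complexes, in 12 groups), 2 held a library far from the rest by the gap to its nearest neighbour. Chance alone would mark about 5% of such sets. The complex I sum was 2397 CPM in DMSO plate 1 well G, with the next library at 1979 CPM and the group's median at 1770 CPM. It was 1720 CPM in pGE2 plate 2 well F, with the next library at 2046 CPM and the median at 2157 CPM.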

How the results depend on the processing

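Where a comparison's calls all had 1 direction, no gene of the set passed in the other under the alternatives run, except Ndufa4, higher in Halofuginone against Torin without wells B and F, and Ndufaf7, higher in Halofuginone against Tunicamycin on plate 1 alone. With RLE scaling the count of calls was 27 in LPS, 34 in tBHQ, 1 in BrefA and 3 in Tunicamycin against BrefA. DESeq2 gave 29, 34 and 3 in LPS, tBHQ and Tunicamycin against BrefA, 2 in pGE2 and 4 in Tunicamycin. Without a filter on low counts there were 7 in LPS, 7 in tBHQ, 1 in BrefA, 3 in Tunicamycin against BrefA, and 0 in pGE2, Caspase-1 and Tunicamycin. Without the plate term pGE2, Caspase-1 and Tunicamycin had 0. A filter at 20 CPM, or leaving out Rn45s and Lars2, gave 3 in Tunicamycin against BrefA. Fits of only the groups compared gave 22 in tBHQ, 22 in Halofuginone, 7 in Halofuginone against Torin, 29 in Halofuginone against Tunicamycin, 3 in Tunicamycin against BrefA and 0 in Tunicamycin.

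Plate 1 alone gave 6 in Torin, 3 in tBHQ, 0 in pGE2 and Caspase-1, 1 in BrefA, 20 in Halofuginone against Torin and 13 in Tunicamycin against BrefA. Plate 2 alone gave 2 in LPS, 0 in Torin, pGE2, Caspase-1 and Tunicamycin, 34 in Halofuginone, 1 in BrefA, 22 in Halofuginone against Torin and 2 in Tunicamycin against BrefA, where Atp5l was at -0.036 in place of 0.37. Same-named wells summed gave 9 in LPS, 9 in Torin, 6 in tBHQ, 1 in BrefA, 3 in Tunicamycin against BrefA and 0 in pGE2, Caspase-1 and Tunicamycin. The Rn45s covariate gave 9 in Halofuginone, 2 in Halofuginone against Torin, 11 in Halofuginone against Tunicamycin, 3 in Tunicamycin against BrefA and 0 in Caspase-1 and Tunicamycin. Together with summed wells it gave 8 in LPS, 9 in Torin, 6 in tBHQ, 5 in Halofuginone, 3 in Halofuginone against Torin, 4 in Halofuginone against Tunicamycin, 1 in BrefA, 2 in Tunicamycin against BrefA and 0 in pGE2, Caspase-1 and Tunicamycin. Without Halofuginone libraries it gave 3 in Tunicamycin against BrefA and 0 in Caspase-1 and Tunicamycin. Some of these fits held fewer libraries, and the cause of the differences was not tested.

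Leaving out each well letter on both plates gave 9 to 19 calls in LPS (9 without wells B and F), 7 to 12 in Torin (9, 9 and 7 without wells E, F and H), 7 to 17 in tBHQ (7 without G), 0 to 2 in pGE2, 0 to 1 in Caspase-1, 42 to 51 in Halofuginone, 1 to 3 in BrefA (1 without F), 0 to 1 in Tunicamycin, 27 to 34 in Halofuginone against Torin, 51 to 57 in Halofuginone against Tunicamycin and 2 to 6 in Tunicamycin against BrefA (2 without G). The 75 named gene results had 1356 values under 19 alternatives, since some alternatives do not hold every comparison. Of these 1 reversed, the Atp5l value above, 308 no longer passed and 1047 still did.

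No paired analysis was possible because NoStim wells are A to D and DMSO wells E to H, in the LPS comparison. Between the other groups, deviations of wells with the same plate and letter had a mean correlation of 0.027 over 440 pairs, 58 of them over 0.1. For other letters on the same plate it was -0.00705 over 1672 pairs, 132 of them over 0.1. These means do not show whether wells of the same plate and letter share more than a letter. Wells of the same treatment and letter on the other plate had a mean correlation of 0.105 over 48 pairs, 20 of them over 0.1. With other letters it was -0.0349 over 144 pairs, 4 of them over 0.1. Whether wells of the same treatment and letter came from 1 culture is not given in the labels, and the summed wells above treat them as 1 sample. With plate and well as a replicate block Tunicamycin had 4 calls, and the other counts stayed within 1.5 times. Depth limits the Halofuginone values, since those libraries held 112 to 252 counts of the whole set.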
